A study of Homo sapiens with 4 samples.

Results

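The subject of these results is a group of 10 human genes of feedback on the ERK signalling cascade and of its output. The group holds the phosphatase genes DUSP4, DUSP5 and DUSP6, the Sprouty genes SPRY1, SPRY2 and SPRY4, and their relatives SPRED1 and SPRED2. It also holds the transcription factor genes ETV4 and ETV5, which are readouts of the cascade. All 10 are called feedback genes here for short. They were chosen by name, and all 10 were found among the 58676 gene identifiers of the deposited count table. The table holds RNA sequencing counts of 4 libraries from U2OS, an established human osteosarcoma cell line grown in DMEM with 10% fetal bovine serum. In 2 libraries, labelled U2OS(M11), the cells were given a single-domain antibody (sdAb) against MN1, and in 2 libraries, labelled U2OS(con), a control sdAb. Such an sdAb is a lone variable domain that binds its target without the rest of an antibody, and MN1 is a transcriptional coregulator. The sources used here do not give the dose, the time or the way of delivery, and do not say whether replicates were grown separately. The p-values thus cover only the differences among these 4 libraries, and these may be technical.

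ERK, the last kinase of the RAS, RAF and MEK cascade, is switched on by growth factor receptors and in turn raises the transcription of its own inhibitors. DUSP enzymes remove the activating phosphates from ERK, Sprouty proteins act between the receptor and RAF, and SPRED proteins bring the RAS inactivator neurofibromin to the membrane. ETV4 and ETV5 are ETS family activators of the PEA3 group whose transcripts rise with FGF and ERK signalling, and transcripts of these families are widely used as readouts of that pathway.

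Promoter windows were available for 6 of the 10 members in RefSeq (GRCh38.p14), from 250 bases before to 50 bases after each of 10 start sites. There was no window for DUSP4, DUSP5, ETV4 or ETV5. Of these windows, 4 are shown because they stand for a gene that rose in each of the phosphatase, Sprouty and SPRED families, and for a Sprouty gene that did not pass the test. The calls of DUSP6 and SPRED1 were lost in some settings, as given further on. Capitals mark the ETS motif letters CGGAAG or AGGAAG, or their complement, read on both strands. The windows are chr12:89352452-89352751 (minus strand) for DUSP6, chr13:80341077-80341376 (minus strand, the outermost of the SPRY2 starts), chr15:38252586-38252885 (plus strand) for SPRED1 and chr5:142324198-142324497 (minus strand) for SPRY4.
DUSP6: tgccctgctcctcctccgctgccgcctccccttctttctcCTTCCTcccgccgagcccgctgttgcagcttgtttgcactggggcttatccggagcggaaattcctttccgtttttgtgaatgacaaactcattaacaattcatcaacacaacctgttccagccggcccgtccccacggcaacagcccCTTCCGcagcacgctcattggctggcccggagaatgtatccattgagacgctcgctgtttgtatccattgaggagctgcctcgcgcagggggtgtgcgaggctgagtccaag
SPRY2: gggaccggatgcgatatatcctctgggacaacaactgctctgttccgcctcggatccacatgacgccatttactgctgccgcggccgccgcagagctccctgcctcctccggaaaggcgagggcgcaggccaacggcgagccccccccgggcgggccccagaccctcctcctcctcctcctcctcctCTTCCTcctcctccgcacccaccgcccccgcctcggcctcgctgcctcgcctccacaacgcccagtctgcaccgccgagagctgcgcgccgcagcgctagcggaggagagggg
SPRED1: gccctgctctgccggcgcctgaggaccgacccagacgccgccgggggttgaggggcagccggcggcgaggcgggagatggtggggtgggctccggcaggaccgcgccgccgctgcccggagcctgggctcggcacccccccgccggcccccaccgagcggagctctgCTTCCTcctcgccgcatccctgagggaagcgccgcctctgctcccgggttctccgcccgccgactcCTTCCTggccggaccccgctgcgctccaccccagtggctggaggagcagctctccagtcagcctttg
SPRY4: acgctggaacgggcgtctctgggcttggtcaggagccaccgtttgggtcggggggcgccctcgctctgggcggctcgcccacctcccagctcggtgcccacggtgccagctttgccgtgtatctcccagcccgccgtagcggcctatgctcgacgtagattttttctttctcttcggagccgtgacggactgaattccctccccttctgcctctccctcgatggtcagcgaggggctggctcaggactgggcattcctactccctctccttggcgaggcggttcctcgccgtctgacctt
The ETS letters stood at -210 to -205 and -62 to -57 from the DUSP6 start, at -63 to -58 from the SPRY2 start, and at -83 to -78 and -17 to -12 from the SPRED1 start, where 1 is the first transcribed base. They were not in the SPRY4 window. Among the other members that did not pass, the SPRED2 windows held 1 and 4 matches and the SPRY1 windows 0 and 2. The letters thus did not separate the members that rose from those that did not pass. Over all 10 windows of the members, 8 held the ETS letters, against 46.9% of 35116 RefSeq windows of the same length. The 10 windows come from only 6 genes, with several each for SPRY1, SPRY2 and SPRED2. Their GC content was not matched and no enrichment was tested. The AP-1 letters TGANTCA were in 1 of the 10 windows, the inner SPRED2 start, and in 7.71% of all windows, the CRE letters TGACGTCA in 0 of 10 and in 1.85%, the GC box letters GGGCGG in 6 of 10 and in 45% and the TATA letters TATAAA in 1 of 10 and in 11.5%. These matches describe the sequence and show no binding.

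The anti-MN1 libraries held 16075169 and 15970324 counts and the control libraries 15740268 and 16816893, so that 3 counts, the most that a count of 0 allows, came to between 0.174 and 0.194 CPM (read counts scaled to library size and, by TMM, to composition). This limit covers counting error only. Across genes, Pearson's r of log2 CPM was 0.99 between the anti-MN1 libraries and 0.992 between the controls, against 0.973 to 0.974 between groups. Of 10 markers of the mesenchymal and osteoblast lineage fixed for this check, VIM, FN1, CDH2, COL1A1, SPARC and RUNX2 stood at 17.2 CPM or more in every library, ALPL stood at 1.56 to 2.91 CPM, BGLAP at no more than 0.384 CPM, and SP7 and IBSP had no count. Their summed level was 1020 and 1030 CPM with the anti-MN1 sdAb and 1600 and 1580 CPM in the controls, a difference whose part in the results was not tested. Most of the difference lay in COL1A1 (159 and 165 against 501 and 484 CPM) and SPARC (113 and 115 against 253 and 260 CPM). FN1 and RUNX2 were also lower with the anti-MN1 sdAb and VIM differed little. CDH2 (132 and 132 against 121 and 120 CPM) and ALPL were higher. In such bulk libraries, fewer cells of a kind and less RNA per cell cannot be told apart. Summed markers of other cell types were low: with the anti-MN1 sdAb and the control sdAb in turn, 4 epithelial markers stood at 3.20 and 2.13 against 3.60 and 5.96 CPM, 5 blood markers at 0.959 and 0.581 against 0.558 and 0.984 CPM, with HBB and CD3E at 0, and 4 endothelial markers at 4.16 and 3.88 against 4.16 and 3.76 CPM.

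The design has a single comparison, of cells given the anti-MN1 sdAb with cells given the control sdAb. Of the 10 feedback genes, all passed the filter on low counts, 6 rose with the anti-MN1 sdAb (DUSP4, DUSP5, DUSP6, SPRY2, SPRED1 and ETV4) and none fell by edgeR's quasi-likelihood test at an adjusted p under 0.05. SPRY1, SPRY4, SPRED2 and ETV5 did not pass. Of 17524 genes tested, 23.7% rose and 21.6% fell by the same rule, and of the 13891 with a mean level within the range of the members (0.6 to 77.6 CPM), 18.2% rose. At an unadjusted p under 0.05 in edgeR, 7 members passed, with SPRED2 the 1 that was lower. The share of all tested genes at that threshold was not taken, and 45.3% already passed the adjusted one in either direction. DESeq2 and limma-voom called 0 members lower. A rise of at least 1.5-fold was found in DUSP4, DUSP5, DUSP6 and SPRY2, 4 of the 10, against 5.32% of all tested genes and 5.68% of those in the members' range. The median log2 fold change was 0.29 for the members and 0.00 for all tested genes. With upper-quartile scaling 5 members rose and SPRED2 fell, while 17.5% of all tested genes rose and 28.4% fell, so that 38.0% of all calls were rises there, against 52.3% with the main scaling. DESeq2 called 4 members higher, all but DUSP6 and SPRED1 of the 6, and 17% of all tested genes. The anti-MN1 libraries lay above both controls for 8 members and below both for SPRY1 and SPRED2, whereas 35.3% of all tested genes lay above and 35.4% below.

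**Figure D1:**
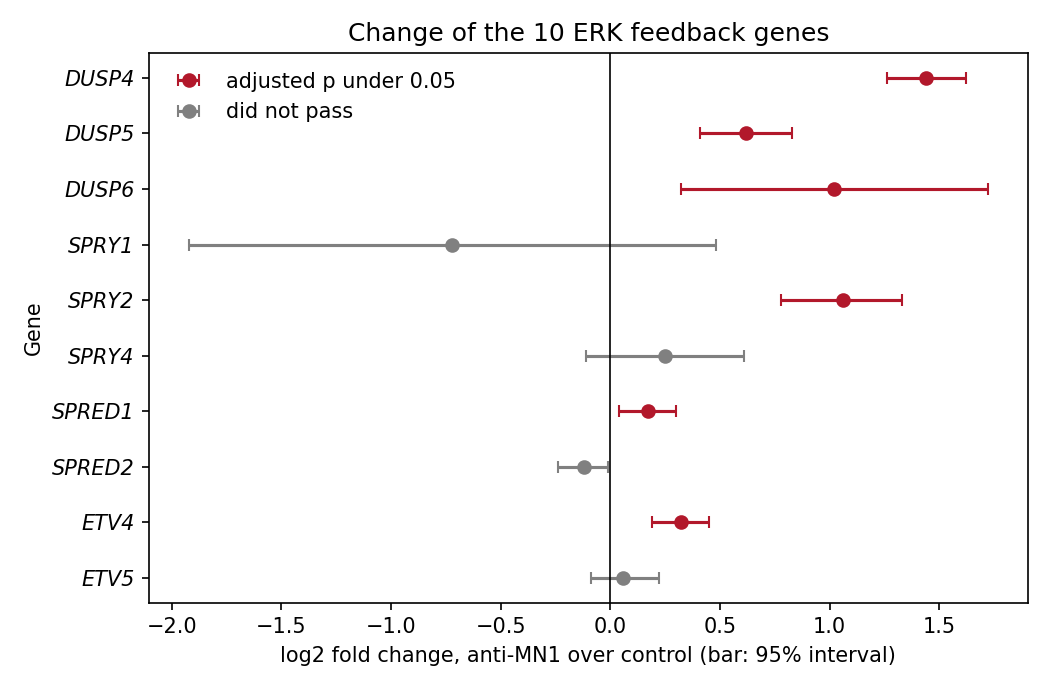
Log2 fold change (anti-MN1 over control, horizontal axis) of each of the 10 genes, with bars for the 95% interval, not adjusted for the number of genes. DUSP4 stands highest at 1.44, the intervals of DUSP6 and SPRY1 are the widest, and the 4 grey genes did not pass the adjusted threshold.

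Among the phosphatases, DUSP4 and DUSP5 encode nuclear enzymes and DUSP6 a cytoplasmic one with strong preference for ERK. DUSP4 (ENSG00000120875, chromosome 8, 29333064 to 29350668, minus strand, GRCh38) had 765 and 780 counts, or 48.9 and 50.4 CPM, in the anti-MN1 libraries, against 286 and 325 counts, or 17.7 and 18.8 CPM, in the controls. The groups stood far apart relative to the spread within each. The log2 fold change was 1.44 ± 0.09 (SE), a 2.71-fold rise with an adjusted p of 2.51e-36 in edgeR, and 0.856% of all tested genes had a larger one. DUSP5 (ENSG00000138166, chromosome 10, 110497838 to 110511544, plus strand) stood at 27.0 and 24.6 CPM with the anti-MN1 sdAb and at 15.6 and 17.9 CPM with the control sdAb. It rose 1.53-fold, with a log2 fold change of 0.62 ± 0.11 (SE) and an adjusted p of 2.03e-07 in edgeR, and the groups did not overlap.

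DUSP6 (ENSG00000139318, chromosome 12, 89347232 to 89353271, minus strand), the classical ERK-induced phosphatase gene, was much less abundant. It had 37 and 46 counts in the anti-MN1 libraries, or 2.37 and 2.97 CPM, against 12 and 32 counts, or 0.745 and 1.85 CPM, in the controls. The 95% Poisson intervals of these counts were 26.1 to 51.0 and 33.7 to 61.4 in the anti-MN1 libraries and 6.20 to 21.0 and 21.9 to 45.2 in the controls, for counting error only, so the higher control overlapped both anti-MN1 libraries within counting error. DUSP6 had a log2 fold change of 1.02 ± 0.36 (SE) and an adjusted p of 0.0127 in edgeR. This call rested on single libraries, with 0.52 (adjusted p = 0.323) without control replicate 1, 1.83 without control replicate 2 and 0.85 (adjusted p = 0.108) without anti-MN1 replicate 2. DESeq2 gave an adjusted p of 0.131. Exons of genes on the other strand cover 40.5% of the DUSP6 exonic bases, and the strand setting of the counting is not given in the sources used here, so its reads cannot be told apart from those of its neighbours with certainty.

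Of the Sprouty genes, SPRY2 rose, and SPRY1 and SPRY4 did not pass. SPRY2 (ENSG00000136158, chromosome 13, 80335976 to 80340951, minus strand), which encodes an inhibitor of receptor tyrosine kinase signalling, had 275 and 249 counts with the anti-MN1 sdAb, or 17.6 and 16.1 CPM, against 120 and 150 counts, or 7.45 and 8.68 CPM, in the controls. Both anti-MN1 libraries stood well above both controls. The rise was 2.08-fold, with a log2 fold change of 1.06 ± 0.14 (SE) and an adjusted p of 1.51e-11 in edgeR. SPRY4 (ENSG00000187678, chromosome 5, 142310427 to 142326455, minus strand), a close relative with the same inhibitory role, had levels of 7.68 and 7.43 CPM in anti-MN1 libraries, against 7.38 and 5.33 CPM in control libraries. Control replicate 1 lay close under the anti-MN1 libraries and control replicate 2 well below them. The log2 fold change of SPRY4 was 0.25, with a 95% interval from -0.11 to 0.61 and an adjusted p of 0.264 in edgeR, and it was 0.50 without control replicate 1 and 0.03 without control replicate 2. SPRY1 (ENSG00000164056, chromosome 4, 123396795 to 123403760, plus strand), the third Sprouty gene of the group, was barely expressed, with 5 and 9 counts in the anti-MN1 libraries and 12 and 13 in the controls. Its Poisson intervals, 1.62 to 11.7 and 4.12 to 17.1 counts against 6.20 to 21.0 and 6.92 to 22.2, overlapped throughout. The log2 fold change of SPRY1 was -0.72 (adjusted p = 0.347 in edgeR). Its 95% interval ran from 0.263-fold to 1.39-fold, so neither a strong fall nor a small rise is excluded at these counts. SPRY3, the remaining family member, stood at 6.72 CPM in both anti-MN1 libraries and at 7.01 and 6.37 CPM in the controls, and did not pass either (adjusted p = 0.981 in edgeR). It was named after its values were seen.

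By CPM, which is not scaled to gene length, SPRED1 and SPRED2 were among the most abundant members. Both differed little between groups. SPRED1 (ENSG00000166068, chromosome 15, 38252326 to 38357249, plus strand), whose loss in humans causes Legius syndrome, a disorder of RAS signalling, stood at 60.5 and 61.5 CPM with the anti-MN1 sdAb and at 51.7 and 56.5 CPM with the control sdAb. It rose 1.13-fold (log2 fold change 0.17 ± 0.07 SE, adjusted p = 0.0273 in edgeR). The call of SPRED1 was lost without control replicate 1 (0.11, adjusted p = 0.285), without anti-MN1 replicate 1 (adjusted p = 0.066), without anti-MN1 replicate 2 (adjusted p = 0.118), with DESeq2 (adjusted p = 0.17), with upper-quartile scaling (0.09, adjusted p = 0.303) and with the stricter count filter (adjusted p = 0.0542). SPRED2 (ENSG00000198369, chromosome 2, 65310851 to 65432637, minus strand) had 73.9 and 74.5 CPM in the anti-MN1 libraries and 83.5 and 78.5 CPM in the controls. Its log2 fold change was -0.12, with a 95% interval from -0.24 to -0.01 and an adjusted p of 0.0699 in edgeR, so that it did not pass, although it did with upper-quartile scaling (-0.21, adjusted p = 0.00147) and with the stricter count filter (-0.15, adjusted p = 0.0268). SPRED3, the other gene of this family, stood at 17.5 CPM in both anti-MN1 libraries and at 17.7 and 19.3 CPM in the controls, without passing (adjusted p = 0.608 in edgeR). It too was named after its values were seen.

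Of the PEA3 group, ETV4 rose and ETV5 did not pass. ETV4 (ENSG00000175832, chromosome 17, 43527844 to 43579620, minus strand) had 1050 and 979 counts, or 67.2 and 63.2 CPM, in the anti-MN1 libraries, against 890 and 851 counts, or 55.2 and 49.3 CPM, in the controls. The rise was 1.25-fold, with a log2 fold change of 0.32 ± 0.07 (SE) and an adjusted p of 1.73e-05 in edgeR. ETV5 (ENSG00000244405, chromosome 3, 186046308 to 186110318, minus strand) stood at 42.3 and 43.3 CPM with the anti-MN1 sdAb and at 40.4 and 41.5 CPM with the control sdAb. Its log2 fold change of 0.06 had a 95% interval from -0.09 to 0.22 (adjusted p = 0.536 in edgeR), and it was -0.02 with upper-quartile scaling. ETV1, the third gene of the PEA3 group and one of the ERK output genes listed further on, had 11.2 and 13.2 CPM with the anti-MN1 sdAb, against 7.82 and 8.86 CPM with the control sdAb, a log2 fold change of 0.54 (adjusted p = 0.00141 in edgeR). The ETV1 call was lost without control replicate 1 (0.46, adjusted p = 0.054) and without anti-MN1 replicate 2 (0.42, adjusted p = 0.0658). It was named after its values were seen.

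Levels were compared between genes per kilobase of exon (CPM per kb, with the exonic bases of GENCODE release 29). In the anti-MN1 libraries the order from high to low was ETV4 at 18.1 CPM per kb, SPRED2 at 14.4, DUSP5 at 9.87, SPRED1 and ETV5 at 7.38 each, DUSP4 at 6.84, SPRY2 at 5.54, SPRY4 at 1.15, DUSP6 at 0.576 and SPRY1 at 0.114, as means of 2 libraries. Only SPRED1 and ETV5 overlapped there among neighbours in the order. In the controls SPRED2 came first at 15.7 CPM per kb, then ETV4 at 14.5, ETV5 at 7.06, SPRED1 at 6.55, DUSP5 at 6.42, SPRY2 at 2.65, DUSP4 at 2.52, SPRY4 at 0.968, DUSP6 at 0.28 and SPRY1 at 0.189. Of these neighbours SPRED2 and ETV4, SPRED1 and DUSP5, SPRY2 and DUSP4, and DUSP6 and SPRY1 overlapped. DUSP6, a common readout of ERK output, was thus among the least abundant in U2OS cells, and DUSP5 was the most abundant per kb of DUSP4, DUSP5 and DUSP6.

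**Figure D2:**
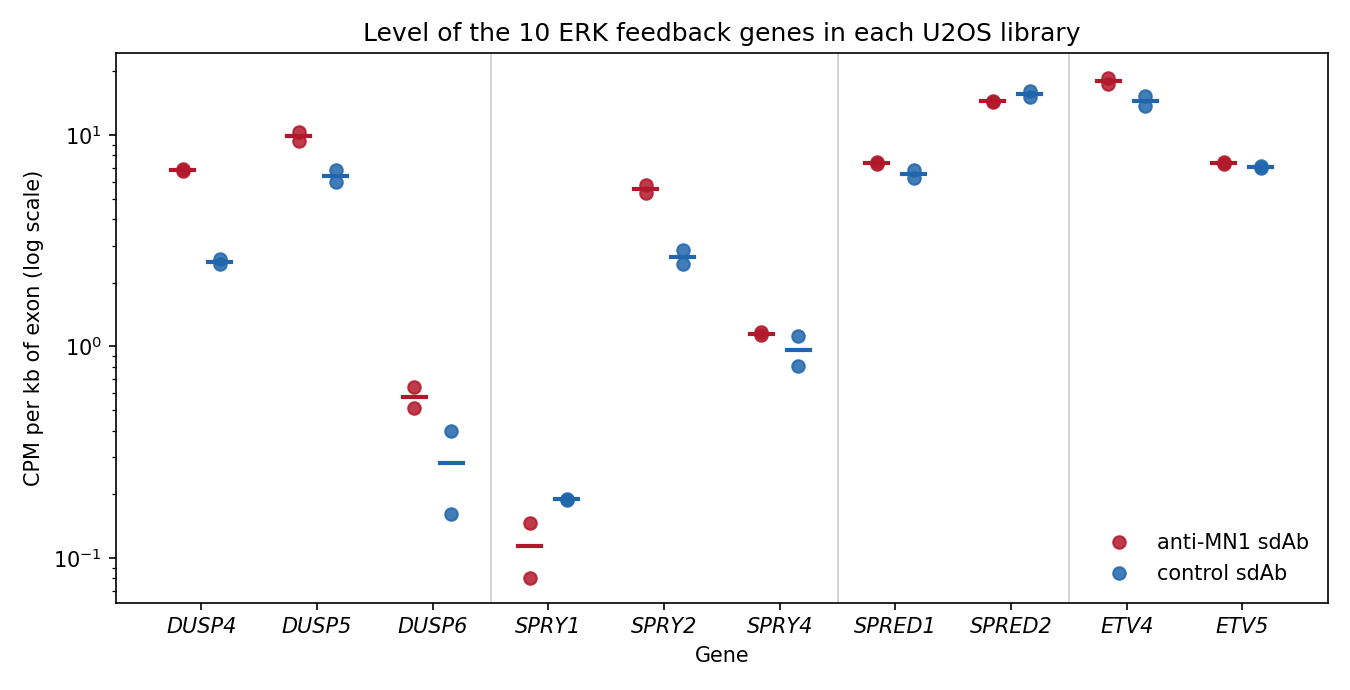
Level of each of the 10 genes in CPM per kb of exon (vertical axis, log scale), with a point for each library and a bar for the mean of the 2 libraries of a group, anti-MN1 left and control right. The groups are far apart for DUSP4 and SPRY2, while the control points of DUSP6 and the anti-MN1 points of SPRY1 are spread over a wide range.

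Ratios of relatives within a library do not depend on the scaling of the libraries. The ratio of DUSP4 to DUSP5 per kb was 0.653 and 0.738 in the anti-MN1 libraries and 0.409 and 0.378 in the controls, so that DUSP4 rose more than DUSP5. SPRY2 stood at 4.95 and 4.68 times SPRY4 with the anti-MN1 sdAb, against 2.18 and 3.52 times in the controls. SPRED1 stood at 0.511 and 0.515 of SPRED2, against 0.386 and 0.449 in the controls, and ETV4 at 2.55 and 2.35 times ETV5, against 2.20 and 1.91 times. In these 4 pairs the groups did not overlap. No share of non-overlapping pairs was taken over all genes. Of single tested genes, 35.3% lay above and 35.4% below both controls. The ratio of DUSP4 to DUSP6, at 13.2 and 10.8 in the anti-MN1 libraries and 15.2 and 6.48 in the controls, did overlap. So did that of DUSP5 to DUSP6, at 20.2 and 14.7 against 37.2 and 17.2 in the controls. SPRY2 stood at 71.7 and 36.1 times SPRY1 with the anti-MN1 sdAb, against 13 and 15.1 times in the controls, without overlap. The SPRY1 counts behind this were very low. Summed, the 3 phosphatase genes stood at 78.3 and 78.0 CPM with the anti-MN1 sdAb and at 34.1 and 38.6 CPM in the controls. By CPM, which is not scaled to gene length, DUSP4 made up 62.5% and 64.6% of this with the anti-MN1 sdAb. In the controls its share was 52.0% and 48.7%. Per kb, DUSP4 stood below DUSP5 in every library, at 6.74 and 6.94 against 10.3 and 9.41 CPM per kb in the anti-MN1 libraries. In the controls these levels were 2.45 and 2.59 against 5.98 and 6.86 CPM per kb. The sum of SPRED1 and SPRED2 was 134 and 136 CPM in the anti-MN1 libraries and 135 in each control.

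Leaving out each library in turn separated the members into 3 kinds. DUSP4, DUSP5, SPRY2 and ETV4 kept their rise in each of the 4 fits, with log2 fold changes of 1.40 to 1.48, 0.52 to 0.72, 0.95 to 1.18 and 0.24 to 0.40. DUSP6 and SPRED1 lost their call in some of these fits, as given above. SPRY1, SPRY4, SPRED2 and ETV5 passed in none of them. Over all tested genes 19.2% and 19.4% rose without control replicate 1 and 2, and 20.5% without either anti-MN1 library. In these fits the group with a lone library is assumed to vary like the other.

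**Figure D3:**
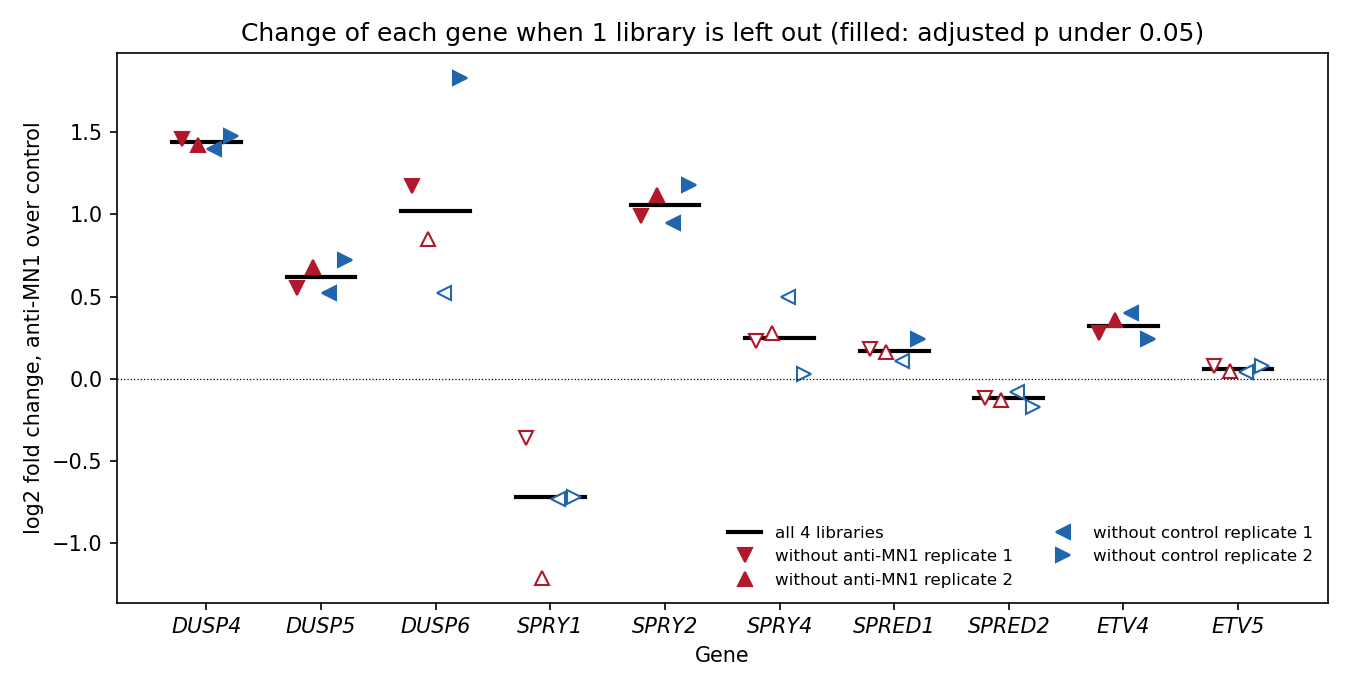
Log2 fold change (anti-MN1 over control, vertical axis) of each gene with all 4 libraries (black bar) and with each library left out (symbols, filled where the adjusted p is under 0.05). The symbols of DUSP4, DUSP5, SPRY2 and ETV4 are all filled, and those of DUSP6 run from 0.52 to 1.83.

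Other genes of the pathway were read from 3 lists. Of 26 genes of the cascade itself and its regulators (receptors, adaptors, RAS, RAF, MEK, ERK and RSK genes, RAS inactivators, SPRY3 and SPRED3), 8 rose and 7 fell, with a median log2 fold change of 0.01, beside 0.00 for all tested genes, of which 23.7% rose and 21.6% fell. With upper-quartile scaling the split was 5 higher and 10 lower, against 17.5% and 28.4% of all tested genes. Of all tested genes, 5.32% rose and 11.8% fell past the adjusted threshold by at least 1.5-fold. In this list only EGFR, the epidermal growth factor receptor gene, changed that much. Its level was 166 and 171 CPM with the anti-MN1 sdAb, against 93.1 and 85.1 CPM in the controls, a 1.89-fold rise (adjusted p = 1.03e-45 in edgeR). RPS6KA3, which encodes the ERK-activated kinase RSK2, rose 1.35-fold to 127 and 124 CPM, against 97.5 and 89.7 CPM in the controls. The genes of the kinases themselves changed in opposite ways by small amounts. Of the MEK genes, MAP2K1 rose by 0.39 and MAP2K2 by 0.23 on the log2 scale, whereas MAPK3, which encodes an ERK kinase, fell by 0.40. The RAS activator genes SOS1 and SOS2 fell by 0.39 and 0.49, and NF1, which encodes the neurofibromin that SPRED proteins recruit, fell by 0.20. These kinase, SOS and NF1 genes were named after their values were seen. 

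Of the 7 other MAP kinase phosphatase genes, DUSP1, DUSP2 and DUSP7 rose and none fell, with a median log2 fold change of 0.07, beside the 23.7% and 21.6% of all tested genes that rose and fell. None of the 7 was lower at an unadjusted p under 0.05 in edgeR, and DESeq2 and limma-voom called 0 lower. Without control replicate 1, DUSP8 passed as lower (log2 fold change -0.50, adjusted p = 0.0481 in edgeR). DUSP2, which encodes a nuclear phosphatase, had 30.8 and 29.1 CPM in the anti-MN1 libraries against 13.6 and 17.1 CPM in the controls, a 1.95-fold rise (adjusted p = 1.67e-15 in edgeR). DUSP7, whose product is a cytoplasmic ERK phosphatase like that of DUSP6, stood at 64.9 and 60.5 CPM with the anti-MN1 sdAb and at 46.1 and 45.7 CPM with the control sdAb, a 1.37-fold rise. DUSP1, an early response gene named after its values were seen, rose 1.21-fold.

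Of 16 other transcripts used as readouts of ERK output, TFAP2C was too low to test, 10 rose and 2 fell, with a median log2 fold change of 0.36. Of all tested genes 23.7% rose and 21.6% fell. EPHA4, an ephrin receptor gene, had the largest rise of this list, to 18.6 and 16.7 CPM with the anti-MN1 sdAb against 6.45 and 5.67 CPM in the controls, or 2.92-fold (adjusted p = 2.11e-19 in edgeR). FOSL1, which encodes the AP-1 subunit FRA1, rose 1.96-fold to 72.4 and 69.3 CPM, against 34.2 and 37.9 CPM. MYC rose 1.51-fold, to 432 and 427 CPM against 282 and 289 CPM. Its rise was the smallest of the 3 that reached 1.5-fold among 15 tested, beside 5.32% of all tested genes. LIF and IER3 fell by 0.19 and 0.39 on the log2 scale, with 26.5% of the IER3 exonic bases under exons of the other strand. The LIF call was lost with DESeq2 (adjusted p = 0.127), with no low-count filter (adjusted p = 0.0534) and without control replicate 1, control replicate 2 or anti-MN1 replicate 2 (adjusted p = 0.0721, 0.0934 and 0.133). PHLDA1, EGR1 and FOS did not pass, at log2 fold changes of -0.09, -0.13 and 0.23. EGR1 and FOS are immediate early genes, the first transcripts to respond to ERK, and FOS had 154 and 147 CPM in anti-MN1 cells, against 109 and 147 CPM in control cells. Control replicate 1 was the low one. FOS passed as higher with limma-voom (adjusted p = 0.00761), without the robust option of the fit (adjusted p = 0.00923) and without control replicate 2, anti-MN1 replicate 1 or anti-MN1 replicate 2 (log2 fold changes of 0.47, 0.20 and 0.26). EGR1 passed as lower without control replicate 1 (-0.27, adjusted p = 0.00298), with upper-quartile scaling (-0.21, adjusted p = 0.00215) and without the 20 most abundant genes (-0.13, adjusted p = 0.0465), and stood at 0.03 without control replicate 2. These 5 genes were named after their values were seen.

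**Figure D4:**
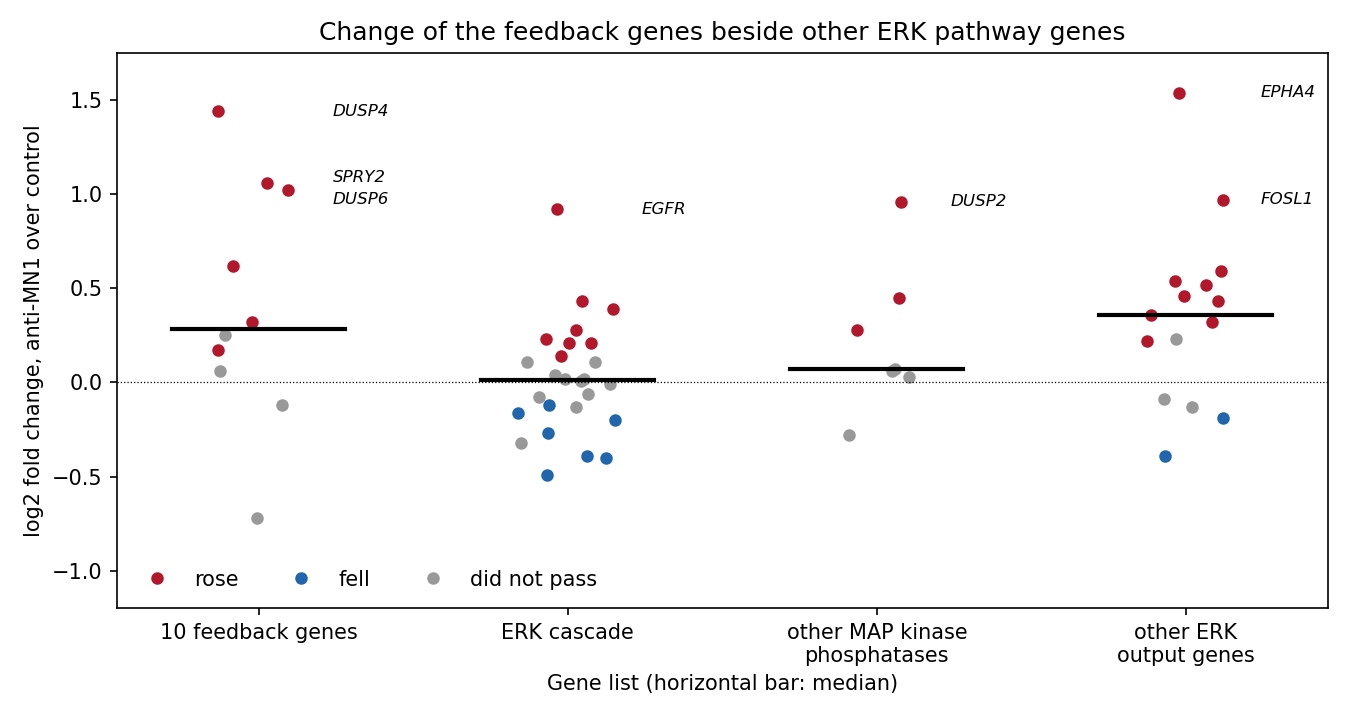
Log2 fold change (anti-MN1 over control, vertical axis) of the 10 feedback genes and of the tested genes of the 3 other lists, with a point for each gene and a bar for the list's median. The medians are 0.29 for the feedback genes, 0.01 for the cascade, 0.07 for the other phosphatases and 0.36 for the other output genes.

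DUSP4 had the smallest p of the members that rose. Among tested genes that averaged 5 CPM or more, those whose pattern over the 4 libraries was closest to it were ITGA2, the integrin alpha 2 gene, PTGES, the prostaglandin E synthase gene, and TXNIP, the thioredoxin-interacting protein gene. Their Euclidean distances to DUSP4 on mean-centred log2 CPM were 0.0797, 0.0936 and 0.0963. ITGA2 stood at 210 and 211 CPM with the anti-MN1 sdAb, against 72.7 and 75.2 CPM with the control sdAb. With 4 libraries in 2 groups, this likeness reflects mostly the size of the difference between groups. No member fell, so no such search was made in that direction.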

How the data were processed

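RNA was extracted from U2OS cells with Trizol, per the labels' protocols, and the authors deposited raw read counts per Ensembl gene for 4 libraries, as whole numbers with no normalization. The submitters' processing notes name HTSeq, Bowtie2 and the build hg38 (GRCh38). Their versions, the annotation and the strand setting are not stated in these sources. Table columns were matched to libraries by the group letter and replicate number of the titles. All 58676 identifiers were in GENCODE release 29, which gave coordinates and exonic lengths, and 58207 had a current symbol.

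The test was run with edgeR (version 4.0.16) under R (version 4.3.3): filterByExpr (minimum count 10), TMM scaling, the robust quasi-likelihood test without covariates, 2-sided, with Benjamini-Hochberg adjustment over 17524 genes and a threshold of 0.05. Standard errors were derived from each log2 fold change and its test statistic. With 2 libraries a group, p-values rest mostly on the spread shared by all genes. The test was checked on simulated counts. It called 17 of 68 changes of 1.2-fold, 41 of 69 of 1.5-fold and 46 of 60 of 2-fold, with 3 of 16899 unchanged genes. Far fewer genes were changed there than were called in the data, so this does not check the scaling. The tested genes held 99.8% of the counts of each library, rounded. DESeq2 (version 1.42.0), limma-voom (version 3.58.1), other scalings and filters, a replicate block and leaving out each library were alternatives.

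The members, lists and tests were chosen with earlier results of these data known. Named were all members, list genes past the threshold with at least a 1.5-fold change, the 2 smallest p of each list, and the 3 genes nearest in pattern to the top member. Other names are marked where they occur, and 1 list gene is not reported here. Sequences are from RefSeq, and in windows of 50 bases at most 2.86% of a member's longest transcript (that of ETV5) occurs in other genes.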

Additional observations from a re-analysis of the deposited data

How the results depend on the processing

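The 13 alternatives gave 129 log2 fold changes for the 10 members, of which 117 kept their direction and their side of the threshold, 9 lost the call, 2 gained it and 1 reversed. DUSP4, DUSP5, SPRY2 and ETV4 passed in all 13, with adjusted p of at most 2.96e-08, 0.00369, 0.000189 and 0.022. DUSP6 passed in 10 and SPRED1 in 7, and the values without their calls stand beside those genes. ETV5 reversed to -0.02 with upper-quartile scaling, where its adjusted p was 0.853. SPRY1 could not be tested with the stricter filter of 30 counts in 2 libraries. The number of members called was 6 in the main test and 4 to 6 over the alternatives, and 4 to 6 when a library was left out. Over all genes 7942 were called in the main test, 5309 with DESeq2 and 6082 to 6801 when a library was left out. The cascade list had 15 calls and ranged from 10 to 16, the other phosphatases 3 and 3 to 4, and the other output genes 12 and 10 to 13. These lists held 26, 7 and 15 tested genes, and 45.3% of all tested genes were called in the main test. EGFR, RPS6KA3, DUSP2, DUSP7, EPHA4, FOSL1 and MYC passed in all 13. How many of all tested genes passed in all 13 was not counted, so this is not particular to these genes or to DUSP4, DUSP5, SPRY2 and ETV4.

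The replicate numbers of the groups are shared, but same-numbered libraries did not deviate together (correlation -0.00308), so they were not treated as pairs. With a replicate block 6 members and 7879 genes were called, and no member's call changed. The fit without robust shrinkage of the spread was chosen after seeing the data and also called 6 members. Depth limits SPRY1 and DUSP6, whose counts ran from 5 to 46. With 2 libraries a group, small changes such as those of SPRED1, SPRED2 and ETV5 rest on the spread assumed from other genes.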
